A study of Mus musculus with 16 samples.

Results

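A set of 7 genes known as markers of mesothelium, Cldn15, Muc16, Msln, Wt1, Upk3b, Lrrn4 and Bnc1, were followed in mesenchyme of the fetal mouse lower urinary tract. They were taken by name, and all 7 of 7 were found among the 55228 gene symbols of the count table and among the 18254 genes tested. RNA sequencing libraries were made from urethra mesenchyme of males, urethra mesenchyme of females, bladder mesenchyme of males and bladder mesenchyme of females, with 4 libraries in each group and 16 in all. All embryos were wild-type CD-1 mice, an outbred stock, at embryonic day 16.5, and none was treated. Embryos of one sex from one litter were pooled, and the epithelium was pulled off with forceps after trypsin. Replicate numbers 1 to 4 mark 4 litters, so libraries of the same number come from the same litter, and urethra and bladder libraries that share number and sex share their embryos. The urethra is the pelvic part only. Nothing in the labels says that the serosa, the outer covering of the bladder, was removed or kept.

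Mesothelium is the flat epithelium that covers organs facing a body cavity, and the dome of the bladder carries it while much of the pelvic urethra lies below the peritoneum. It arises from mesoderm, keeps keratins and junctions like other epithelia, and also expresses genes of mesenchyme. In fetal organs it can shed cells that enter the tissue below. Among the 7 genes, Wt1 encodes a zinc finger transcription factor of mesothelium, kidney and gonad, and Bnc1 (basonuclin) another zinc finger protein, known also from keratinocytes and germ cells. Msln encodes mesothelin, a surface protein held by a lipid anchor, and Muc16 a very large membrane mucin that binds mesothelin. Cldn15 encodes a claudin, a protein of tight junctions, Upk3b a member of the uroplakin family, and Lrrn4 a membrane protein with leucine-rich repeats.

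On GRCm38, Cldn15 lies on the plus strand of chromosome 5 from 136966616 to 136975858 and Upk3b on the plus strand of the same chromosome from 136038496 to 136046487. Wt1 lies on the plus strand of chromosome 2 from 105126529 to 105173616 and Lrrn4 on its minus strand from 132868305 to 132880891. Bnc1 lies on the minus strand of chromosome 7 from 81966653 to 81992307, Muc16 on the minus strand of chromosome 9 from 18495455 to 18674530 and Msln on the minus strand of chromosome 17 from 25748613 to 25754378. The counts are of fragments over the exons of each gene, by strand. A gene on the opposite strand, 4833418N17Rik, shares 113 exon bases with Bnc1 and had 0 to 4 counts per library. Gm25295, which lies within Muc16 on the opposite strand and shares 0 exon bases with it, had 0 counts in each library.

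Promoters of 5 of the 7 genes were matched by symbol in the RefSeq table (GRCm38.p6), each with 250 bases before and 50 bases from the start site. Of these, 4 are shown because they belong to the gene with the largest tissue difference (Cldn15), the gene with the highest bladder level (Upk3b), and 2 genes whose levels followed the other members most closely (Lrrn4 and Bnc1). Each is written 5′ to 3′ on the strand of its gene: Cldn15 at chr5:136967619-136967918 on the plus strand, Upk3b at chr5:136038246-136038545 on the plus strand, Lrrn4 at chr2:132880813-132881112 on the minus strand and Bnc1 at chr7:81992250-81992549 on the minus strand. The RefSeq start site of Cldn15 lies 1253 bases inside the gene as counted. Capitals mark every match, on either strand, to 5 short motifs that are spelled out after the sequences.
Cldn15: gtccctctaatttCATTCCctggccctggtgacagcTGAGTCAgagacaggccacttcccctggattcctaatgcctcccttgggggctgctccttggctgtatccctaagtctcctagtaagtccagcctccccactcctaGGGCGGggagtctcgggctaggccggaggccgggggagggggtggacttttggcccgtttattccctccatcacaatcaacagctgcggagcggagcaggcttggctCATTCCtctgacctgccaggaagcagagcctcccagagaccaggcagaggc
Upk3b: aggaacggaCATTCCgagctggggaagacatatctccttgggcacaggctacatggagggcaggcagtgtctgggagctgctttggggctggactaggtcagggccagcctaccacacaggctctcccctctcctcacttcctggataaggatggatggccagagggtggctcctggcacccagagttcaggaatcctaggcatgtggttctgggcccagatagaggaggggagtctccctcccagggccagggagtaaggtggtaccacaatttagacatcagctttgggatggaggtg
Lrrn4: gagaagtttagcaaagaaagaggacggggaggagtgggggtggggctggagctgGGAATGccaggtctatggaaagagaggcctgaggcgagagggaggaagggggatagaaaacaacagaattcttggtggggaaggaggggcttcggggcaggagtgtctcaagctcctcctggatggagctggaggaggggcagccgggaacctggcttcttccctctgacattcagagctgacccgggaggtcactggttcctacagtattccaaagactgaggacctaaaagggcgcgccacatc
Bnc1: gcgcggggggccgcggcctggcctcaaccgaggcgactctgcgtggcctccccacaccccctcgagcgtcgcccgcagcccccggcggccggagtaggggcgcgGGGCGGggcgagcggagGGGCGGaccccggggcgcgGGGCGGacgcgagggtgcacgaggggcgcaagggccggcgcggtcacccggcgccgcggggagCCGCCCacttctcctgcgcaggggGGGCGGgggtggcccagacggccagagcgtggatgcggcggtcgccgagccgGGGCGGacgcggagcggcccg
The letters GGAATG, known for TEAD factors, were found in 3 of the 5 promoters (Cldn15, Upk3b and Lrrn4), and in 14.7% of all 32851 promoters of the same length in the table. In Cldn15 they occur on the opposite strand, at positions −237 and −1 from the start site. The AP-1 letters TGANTCA were found in the promoter of Cldn15 alone among the 5, against 7.81% of all promoters. A GC box, spelled GGGCGG, was found in 2 promoters, Cldn15 and Bnc1, against 35.7% of all promoters, and Bnc1 holds 6 of them. The Bnc1 promoter has 83.3% G and C bases in all, and the Muc16 promoter, where none of the 5 motifs was found, has 46.7%. The TATA box letters TATAAA were found in 0 of the 5 promoters, against 13.6% of all promoters. The letters GCGTGGGNG, known for the WT1 protein, were also found in 0 of the 5, against 1.9% of all promoters. A match describes the letters only.

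The first comparison asks which genes mark the urethral or the bladder compartment. In urethra mesenchyme 6 of the 7 genes fell well below their bladder level, and Wt1 did not pass the test. Cldn15 fell 16.2-fold, Muc16 14.04-fold, Lrrn4 13.6-fold, Upk3b 11.7-fold, Bnc1 8.06-fold and Msln 3.91-fold. Over all 18254 genes 38.5% were called lower and 36.5% higher in the urethra, with a median log2 difference of −0.03, while the median of the 7 genes was −3.55. Genes count as called when the Benjamini-Hochberg adjusted p of the quasi-likelihood test of edgeR, over all genes tested, is under 0.05. In bulk tissue, fewer mesothelial cells and less of these RNAs per cell cannot be told apart. The summed level of the 10 smooth muscle genes also differed by tissue, with all 10 lower in the urethra (median −3.31), and the urothelium genes and the total counts differed too. Their part in the result was not tested. Fits without libraries of low urothelium content, and with that content as a covariate, called the same number, 6 of 7. That content was a mean over 13 genes, of which 7 were called lower and 1 higher in the urethra. Such a mean does not stand for the genes that fell most, so these fits do not test the part of urothelium.

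**Figure D1:**
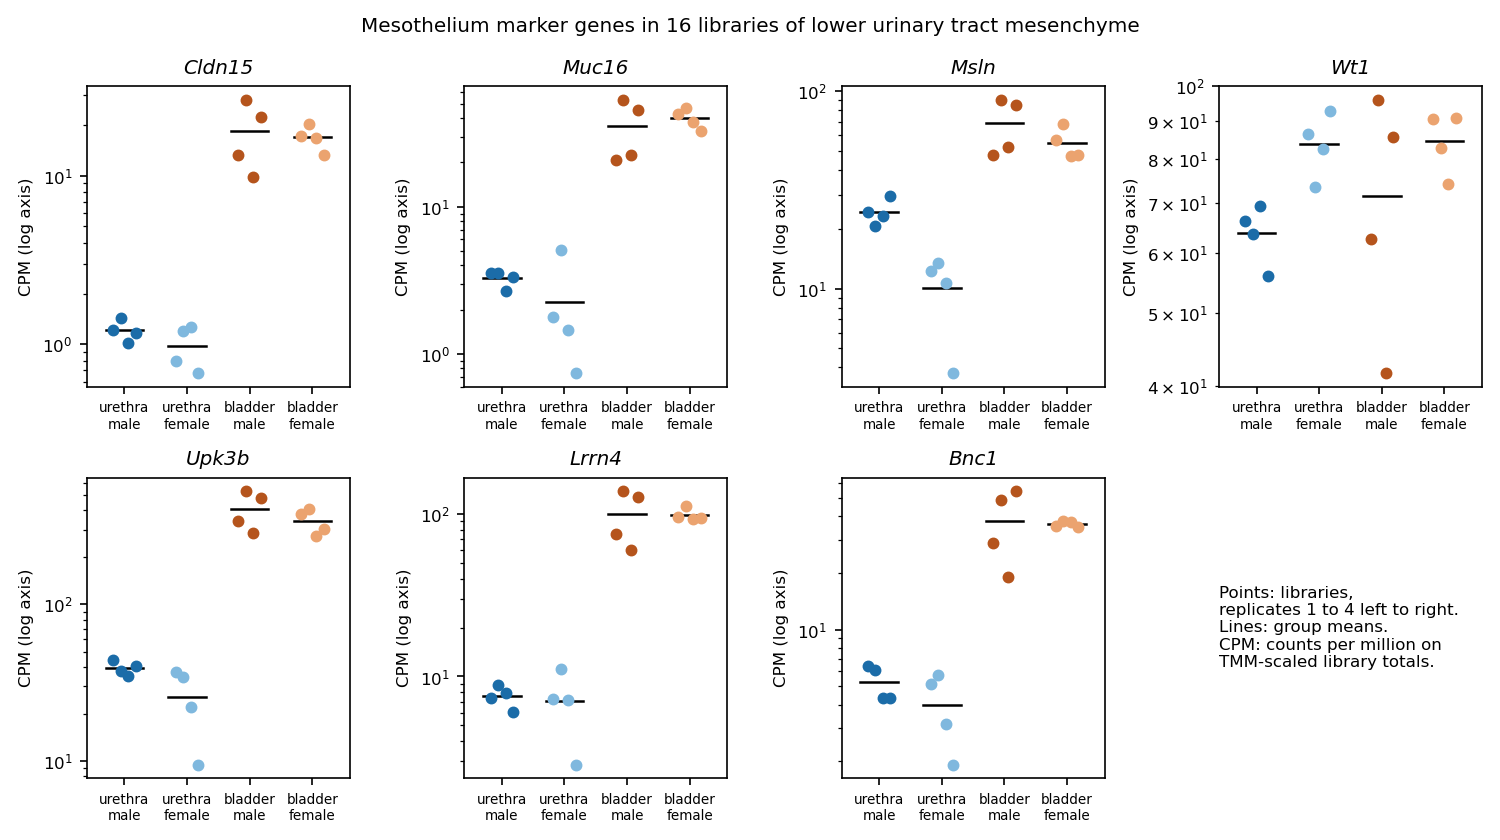
Level of each of the 7 genes in every library, as CPM on a log axis, by group; points are libraries and lines are group means. For 6 genes every urethra library lies under every bladder library, and for Wt1 the tissues overlap.

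Cldn15, the tight junction gene, had 1.21, 1.43, 1.02 and 1.17 CPM (counts scaled to the library total after TMM normalization) in male urethra replicates 1 to 4. In female urethra it had 0.794, 1.203, 1.26 and 0.674 CPM. In male bladder it had 13.3, 28.3, 9.82 and 22.3 CPM, and in female bladder 17.3, 20.3, 16.7 and 13.3 CPM. Every urethra library was thus under every bladder library, with the lowest bladder value at 9.82 and the highest urethra value at 1.43 CPM. The fitted difference was −4.01 ± 0.22 on the log2 scale (SE, 8 libraries per tissue, edgeR adjusted p = 1.17e-10). The urethra values rest on few fragments, 20 to 41 counts per library, against 212 to 581 in the bladder.

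Upk3b, the uroplakin gene, had 44.4, 37.8, 34.8 and 40.5 CPM in male urethra and 37.0, 34.4, 22.004 and 9.48 CPM in female urethra. It had 343, 528, 285 and 475 CPM in male bladder and 376, 407, 274 and 305 CPM in female bladder. The tissues did not overlap, and female urethra replicate 4 was the lowest of all. The difference was −3.55 ± 0.24 (edgeR adjusted p = 3.90e-09). Uroplakin genes are best known from urothelium, and the urothelial uroplakin gene Upk3a also fell, by 2.84 ± 0.29 on the log2 scale. With the mean log2 CPM of 13 urothelium genes as a covariate, the difference of Upk3b was −3.03 ± 0.17 (edgeR adjusted p = 2.43e-09). The median difference of those 13 genes was −0.51, so the covariate does not stand for a fall as large as that of Upk3a. The part of urothelium in the Upk3b difference was not tested.

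Msln, the mesothelin gene, had the smallest difference of the 6. It had 24.4, 20.9, 23.2 and 29.5 CPM in male urethra and 12.4, 13.5, 10.7 and 3.74 CPM in female urethra. In male bladder it had 47.6, 90.6, 51.9 and 85.6 CPM, and in female bladder 56.3, 68.1, 47.2 and 47.6 CPM. Again no urethra library reached a bladder library, although male urethra came nearer than female urethra. The difference was −1.97 ± 0.21 (edgeR adjusted p = 7.19e-07).

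Muc16, whose mucin binds mesothelin, ran from 0.742 to 5.09 CPM in the urethra (median 2.99) and from 20.6 to 53.4 CPM in the bladder (median 40.3), with a difference of −3.81 ± 0.30. Lrrn4 ran from 2.87 to 11.1 CPM over urethra libraries (median 7.34) and from 59.7 to 138 CPM in the bladder (median 94.96), with a difference of −3.77 ± 0.23. Bnc1 ran from 1.92 to 6.38 CPM over urethra libraries (median 4.75) and from 18.98 to 54.1 CPM in the bladder (median 36.3), with a difference of −3.01 ± 0.24. None of the 3 overlapped between the tissues, and their edgeR adjusted p-values were 2.07e-08, 1.45e-09 and 1.35e-08. Ranges that do not overlap, with the urethra lower, were found for 6 of the 7 genes and for 20.3% of all genes tested.

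Wt1, the transcription factor gene, stood apart from the other members. It had 66.2, 63.6, 69.4 and 56.02 CPM in male urethra and 86.3, 73.4, 82.5 and 92.6 CPM in female urethra. It had 62.6, 96.0, 41.6 and 85.6 CPM in male bladder and 90.4, 82.8, 74.1 and 90.8 CPM in female bladder. The tissues overlapped, and the highest and the lowest of the 16 values were both from male bladder. The difference was −0.09 ± 0.13 (edgeR adjusted p = 0.543), with an approximate 95% interval from −0.37 to 0.19. That interval leaves out differences as large as those of the other 6 genes. Without male bladder replicate 3, Wt1 was called lower in male urethra than in male bladder (−0.30, adjusted p = 0.0393).

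**Figure D2:**
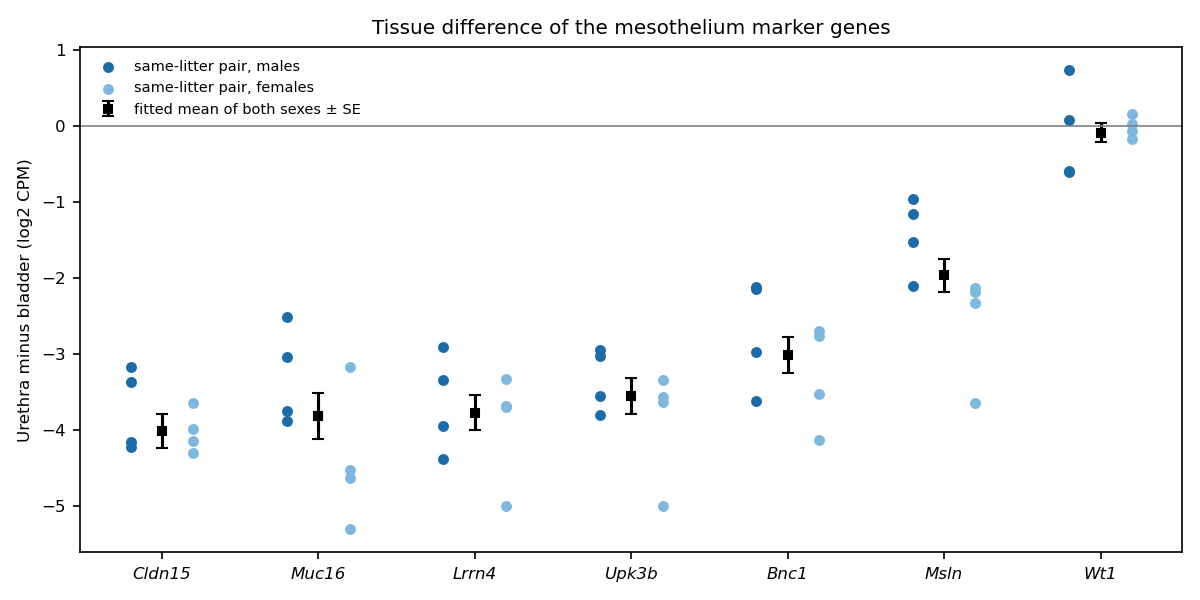
Urethra minus bladder difference of each gene on the log2 CPM scale; circles are the 8 pairs that share litter and sex, and squares are the fitted differences ± SE. All 8 pairs lie under 0 for 6 genes, and 4 of 8 do for Wt1.

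Pairs of the same litter and sex show how the size of the difference varied. For Cldn15, Muc16, Msln, Upk3b, Lrrn4 and Bnc1 the tissues did not overlap. The urethra library was therefore bound to be lower in 8 of 8 pairs, which adds no support. For Wt1 it was lower in 4 of 8. The pairs of Cldn15 differed by −4.31 to −3.17 on the log2 CPM scale, and those of Msln by −3.64 to −0.96. Tested within each sex, the same 6 genes were called lower in female urethra and in male urethra, where 33.1% and 32.6% of all genes were called lower. Muc16 stood at −4.18 ± 0.44 in females and −3.44 ± 0.42 in males, and Msln at −2.44 ± 0.31 and −1.49 ± 0.29. Over the 7 genes 0 were called for a difference between the sexes in this tissue effect (interaction, edgeR), where 0.668% of all genes were called. The largest interaction was that of Msln, 0.95 ± 0.42 (male minus female difference, unadjusted p = 0.0387, adjusted p = 0.549), and the other 6 had an unadjusted p above it.

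Levels were also compared between the genes, as CPM per kilobase of exon length. In the bladder Upk3b was highest at 106 ± 26.0 CPM per kb, then Lrrn4 at 26.8 ± 6.95, Msln at 20.2 ± 5.76, Wt1 at 12.6 ± 2.92, Cldn15 at 8.32 ± 2.77, Bnc1 at 7.90 ± 2.33 and Muc16 at 1.43 ± 0.443 CPM per kb (SD, n = 8). Neighbours in that order from Lrrn4 to Msln and from Cldn15 to Bnc1 differed by less than the SD of the higher gene. Over the urethra libraries of both sexes Wt1 came first, at 11.9 ± 2.01 CPM per kb, followed by Upk3b at 9.22 ± 3.22, Msln at 5.65 ± 2.80, Lrrn4 at 1.97 ± 0.633, Bnc1 at 0.992 ± 0.327, Cldn15 at 0.516 ± 0.119 and Muc16 at 0.105 ± 0.0531 CPM per kb (SD, n = 8). Wt1 and Upk3b there also differed by less than the SD of Upk3b. That order differed by sex: in male urethra Upk3b had 11.2 ± 1.15 and Wt1 10.3 ± 0.919 CPM per kb, and in female urethra Upk3b had 7.28 ± 3.58 and Wt1 13.5 ± 1.29 CPM per kb (SD, n = 4 each). The exon length of Muc16, 26350 bases in the table, is the longest of the 7, so its low value per kb rests on many bases.

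The second comparison, of males with females, gave few differences. In the urethra 1 of the 7 genes was called, Msln, with 24.5 ± 3.64 CPM as the male mean and 10.1 ± 4.38 CPM as the female mean (SD, n = 4 each). All 4 male libraries were above all 4 female ones, so the male library was necessarily higher in 4 of 4 litters. The difference was 1.29 ± 0.31 (edgeR adjusted p = 0.0211), where 3.97% of all genes were called higher and 2.42% lower in males, and where male ranges lay wholly over female ones for 7.09% of genes. The sum of the 13 urothelium genes overlapped between the sexes, at 1154 to 1520 CPM in male and 391 to 1254 CPM in female urethra. Female replicates 1 and 2 had sums of 1217 and 1254 CPM, and Msln at 12.4 and 13.5 CPM. The keratin gene Krt7 was also higher in males, at 156 ± 22.3 and 73.4 ± 30.3 CPM. Female replicates 3 and 4 had the lowest sums of urothelium genes, 654 and 391 CPM. Without these 2 libraries the difference of Msln was 0.92 (adjusted p = 0.124), and with the urothelium score as a covariate 0.74 (adjusted p = 0.204), both chosen after seeing the data. The part of urothelium in the Msln difference was not tested. The call was also lost without female urethra replicate 3 alone (1.32, adjusted p = 0.0538), without male urethra replicate 4 (1.18, adjusted p = 0.0698) and without a filter on low counts (1.30, adjusted p = 0.0610).

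Wt1 ran the other way in the urethra. Its mean was 63.8 ± 5.69 CPM in male urethra and 83.7 ± 8.01 CPM in female urethra (SD, n = 4 each). All male libraries were under all female ones, so 4 of 4 litters were necessarily lower in males. The fit did not call it (−0.39 ± 0.18, edgeR adjusted p = 0.252), and 6.33% of all genes had male ranges wholly under the female ranges in that tissue. Upk3b averaged 39.4 ± 4.07 CPM in male and 25.7 ± 12.6 CPM in female urethra, was higher in males in 4 of 4 litters, and was not called (0.62 ± 0.32, edgeR adjusted p = 0.312). Its difference was 0.34 to 0.85 with single libraries left out, 0.14 without female urethra replicates 3 and 4, and 0.051 with the urothelium covariate. Bnc1 was also higher in males in 4 of 4 litters and not called (0.41 ± 0.35), with −0.040 without those 2 libraries. The share of all genes with 4 of 4 litters in 1 direction is not given here, so these litter counts add no weight to the fits. In the bladder 0 of the 7 were called, where 0.581% of all genes were. Fitted differences there ran from −0.24 ± 0.18 for Wt1 to 0.33 ± 0.29 for Msln, and the male and female ranges of all 7 overlapped, whereas they lay apart with males higher for 4.09% and lower for 2.53% of all genes. The smallest unadjusted p of the 7 in the bladder was that of Wt1, 0.203.

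**Figure D3:**
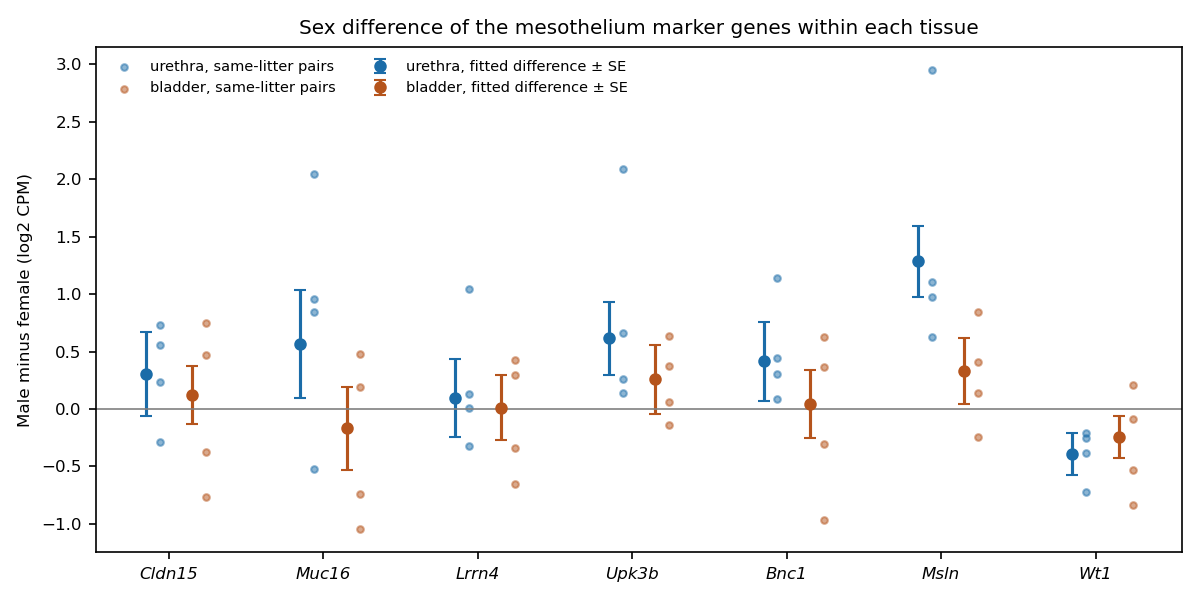
Male minus female difference of each gene on the log2 CPM scale, in the urethra and in the bladder; large points are fitted differences with standard errors and small points are the 4 pairs from the same litter. Msln in the urethra is the one called difference, and the Wt1 pairs in the urethra all lie under 0.

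Single libraries of a group differed from each other, in male bladder in a way the 7 genes shared. In male bladder, replicates 2 and 4 were above replicates 1 and 3 for 7 of 7 genes. This split was chosen after seeing the data, and the share of all genes that show it is not given here. Lrrn4 had 138 and 127 CPM in replicates 2 and 4, and 75.2 and 59.7 CPM in replicates 1 and 3. Bnc1 had 48.7 and 54.1 CPM in replicates 2 and 4, and 28.6 and 18.98 CPM in replicates 1 and 3. The urothelium score did not follow that split, with means of 6.91 and 6.86 log2 CPM in replicates 2 and 4 and 6.64 and 7.002 log2 CPM in replicates 1 and 3. Smooth muscle genes ran the other way, with means of 9.60 and 9.67 log2 CPM in replicates 2 and 4 and 9.80 and 9.90 log2 CPM in replicates 1 and 3. Endothelium genes did so too, with 5.04 and 5.13 log2 CPM in replicates 2 and 4 and 5.18 and 5.50 log2 CPM in replicates 1 and 3. The part of these other cell types in the split was not tested. In female bladder Bnc1 stayed between 35.1 and 37.8 CPM. In female urethra, replicate 4 was the lowest library for 6 of the 7 genes and the highest for Wt1, and its urothelium score was also the lowest of the 16 libraries, at 4.53 log2 CPM.

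**Figure D4:**
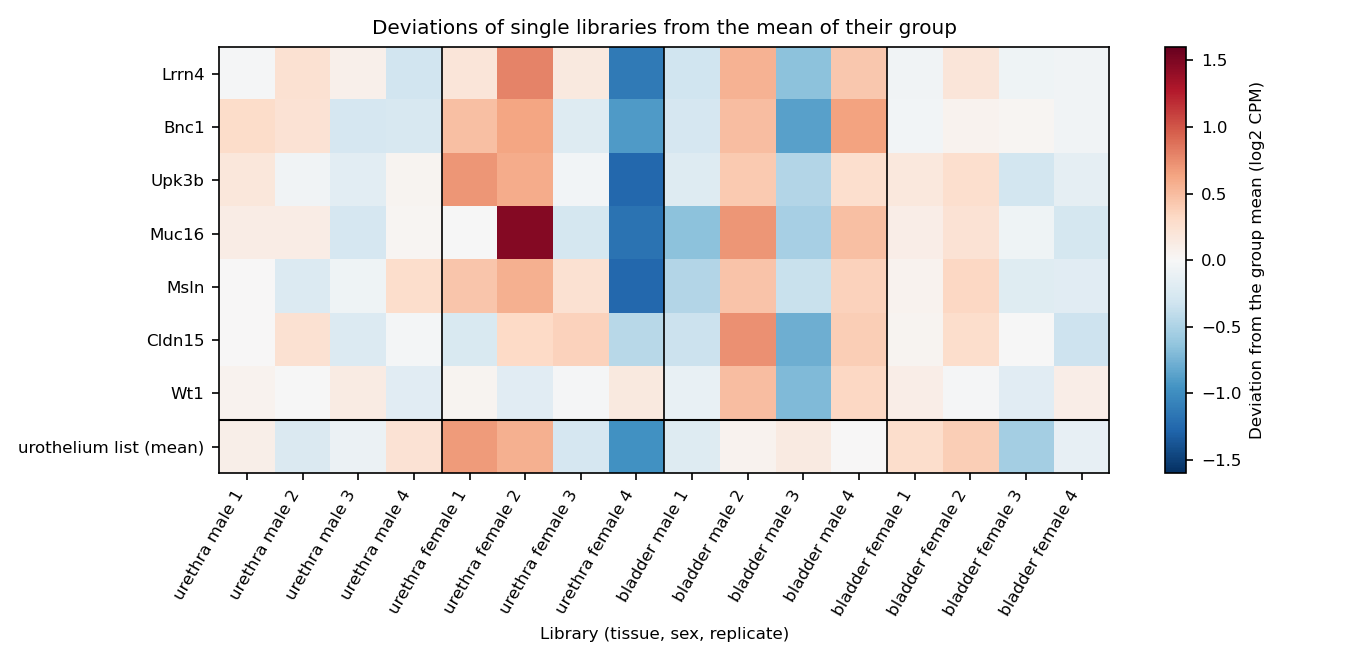
Deviation of each library from the mean of its group (log2 CPM, colour) for the 7 genes and for the mean of 13 urothelium genes, in the columns from urethra male to bladder female. Female urethra replicate 4 is low in 6 genes and in urothelium, and male bladder replicates 2 and 4 are high in all 7 genes.

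As a description of this shared variation, the deviations from the group means were correlated between the genes within each tissue. Over the 8 bladder libraries the 15 pairs among the 6 genes other than Wt1 had Pearson coefficients from 0.80 to 0.97, and the 6 pairs with Wt1 from 0.74 to 0.92. These values rest in large part on male bladder, where Lrrn4 deviated by −0.66 to 0.55, against −0.075 to 0.19 in female bladder. In female bladder, replicate 4 was highest for Wt1 but lowest for Cldn15, Muc16 and Bnc1. There replicate 3 was lowest for Wt1, Msln, Upk3b and Lrrn4. Over the 8 urethra libraries the 15 pairs had coefficients from 0.48 to 0.94, whereas the 6 pairs with Wt1 ran from −0.74 to −0.44. The urethra values rest in large part on female urethra replicate 4. Without it, chosen after seeing the data, the 15 pairs ran from −0.44 to 0.81 (median 0.39) over 7 libraries, and the 6 pairs with Wt1 from −0.68 to −0.061 (median −0.31). Libraries share litters across the sexes, so these 8 are not 8 independent litters.

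Genes whose deviations were most like the mean of the 7 were sought among 15718 other genes of at least 1 CPM, over all 16 libraries. The closest of all is not reported here, and the next 9 had Pearson coefficients from 0.88 to 0.92. Their urethra minus bladder log2 differences are given as a description, since genes such as Folr1 and Tm4sf5 reached the 1 CPM filter through their bladder levels. The 9 began with Slc9a3r1, the scaffold protein NHERF (−1.40 ± 0.11), Rpp25, a ribonuclease P subunit (−3.13 ± 0.23), the connexin gene Gjb5 (−2.78 ± 0.17) and the folate receptor gene Folr1 (−2.76 ± 0.26). They were followed by the transcription factor gene Myrf (−2.59 ± 0.14), the kinase gene Stk26 (−1.35 ± 0.10), Fgfbp1, which binds fibroblast growth factors (−1.30 ± 0.25), the tetraspan membrane gene Tm4sf5 (−4.02 ± 0.31) and the semaphorin gene Sema3e (−1.11 ± 0.12). The mean of Tm4sf5 was 0.958 ± 0.429 CPM over urethra libraries and 15.6 ± 5.08 CPM over bladder libraries (SD, n = 8). The ranking leans on the measure, since with Spearman correlation 4 of the 10 remained among the closest 10.

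Other genes used as mesothelium markers did not share a single direction. Of 15 listed genes, 14 were tested, 8 were called lower and 4 higher in the urethra, and 2 were not called (median −0.47). Over all genes tested, 38.5% were called lower and 36.5% higher. Calb2, the calretinin gene that is a marker of mesothelium in human pathology, did not pass the filter on low counts, with at most 8 counts in a library. The lower ones were led by the membrane glycoprotein gene Gpm6a, with 6.44 ± 1.19 CPM over urethra libraries and 42.4 ± 13.5 CPM over bladder libraries (SD, n = 8, log2 difference −2.72 ± 0.18). Myrf, Ildr2 (−2.48 ± 0.14), Rspo1, the secreted WNT agonist (−2.34 ± 0.17), and Podxl, the podocalyxin gene (−2.12 ± 0.13), followed. Prr15 (−0.80 ± 0.13), the T-box gene Tbx18 (−0.56 ± 0.07) and the podoplanin gene Pdpn (−0.39 ± 0.10) fell by less.

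The 4 called higher over both sexes were Efemp1, an extracellular matrix gene (1.41 ± 0.09), the protease inhibitor gene Slpi (0.97 ± 0.19), and the retinaldehyde dehydrogenase genes Aldh1a2 (0.65 ± 0.10) and Aldh1a1 (0.64 ± 0.11). The value of Aldh1a1 averages opposite directions, since it rose in male urethra against male bladder (1.76 ± 0.16, 4 of 4 pairs higher) and fell in female urethra against female bladder (−0.47 ± 0.16, 4 of 4 pairs lower, edgeR adjusted p = 0.0173). Within the sexes, 4 of the 14 tested genes of the list were called higher and 7 lower in males, and 3 higher and 9 lower in females. Of all 18254 genes, 5727 were called higher and 5952 lower in males, and 5950 higher and 6051 lower in females. Several of these genes are also known from mesenchyme. Aldh1a2 was the most abundant of the 4, with 310 ± 56.2 CPM over urethra libraries and 196 ± 37.3 CPM over bladder libraries (SD, n = 8). Nkain4 and Alcam, with means of 53.4 ± 3.87 and 237 ± 27.6 CPM over urethra libraries and 47.8 ± 8.42 and 224 ± 18.6 CPM over bladder libraries, were not called. All 6 genes that mesothelium and urothelium both express were called lower in the urethra (median −1.58), as were 38.5% of all genes. The uroplakin gene Upk1b led them (−2.21 ± 0.27), followed by the keratin genes Krt7 (−1.76 ± 0.19), Krt18 (−1.72 ± 0.15) and Krt8 (−1.45 ± 0.19).

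Between the sexes, some genes of these lists differed in the urethra. Among the other mesothelium genes Aldh1a1 rose in male urethra by 2.49 ± 0.16 on the log2 scale (edgeR adjusted p = 6.53e-08) and Efemp1 by 1.09 ± 0.12 (adjusted p = 2.06e-05), with Pdpn (0.48 ± 0.14) and the adhesion gene Alcam (0.27 ± 0.08) just inside the threshold. Of the genes shared with urothelium, Krt7 (1.08 ± 0.27) and the membrane linker gene Ezr (0.56 ± 0.16) rose in male urethra. In the bladder Tbx18 fell in males by 0.78 ± 0.10 (edgeR adjusted p = 0.00143). Krt19 (−1.05 ± 0.18) and Ezr (−0.67 ± 0.11) were the other shared genes that fell in the urethra against the bladder.

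**Figure D5:**
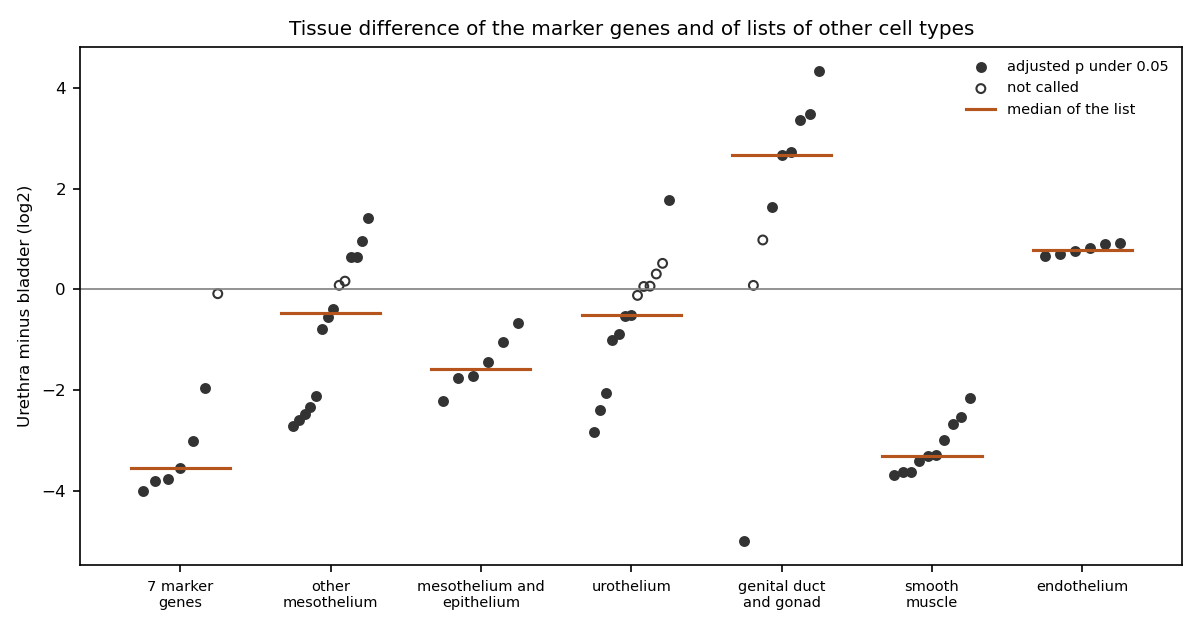
Urethra minus bladder log2 difference of every tested gene in 7 lists, one point per gene; filled points were called and lines are list medians. The medians are −3.55 for the 7 marker genes, −0.47 for other mesothelium genes and −3.31 for smooth muscle genes.

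Lists of other cell types gave values to set beside these, where 38.5% of all genes were called lower and 36.5% higher in the urethra. Of 13 urothelium genes 7 were called lower and 1 higher in the urethra (median −0.51), with Upk3a at −2.84 ± 0.29 and Upk2 at −2.41 ± 0.25. In that list the basal keratin gene Krt14, named after its value was seen, was the one that rose (1.78 ± 0.29). Of 9 tested genes of genital ducts and gonad, organs that also express Wt1, 6 were called higher and 1 lower (median 2.66). The part of such tissue in the Wt1 level was not tested. In that list the WNT ligand gene Wnt7a rose by 4.34 ± 0.53. Its male minus female pairs in the bladder ran from −5.32 to 2.03 on the log2 CPM scale, a wide spread. Bladder libraries had up to 2 genes of that list at 0 counts. Gata4, a GATA factor gene, fell by 5.01 ± 0.18, with 0.496 ± 0.186 CPM over urethra libraries and 16.0 ± 2.66 CPM over bladder libraries (SD, n = 8). The 10 smooth muscle genes were all lower, with Synm at −3.68 ± 0.20 and Tagln at −3.64 ± 0.09, and the 6 endothelium genes all higher (median 0.79), with Cdh5 at 0.93 ± 0.11 and Tie1 at 0.89 ± 0.10. The sum of the 7 marker genes lay between 141 and 154 CPM in male urethra and 112 and 151 CPM in female urethra, against 489 and 984 CPM in male bladder and 580 and 775 CPM in female bladder. No member was at 0 in any library.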

How the data were processed

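Poly(A)-selected, strand-specific libraries from 250 ng of total RNA were sequenced in pairs of 100 bp reads, per the labels' protocols. Per the submitters' processing notes reads were aligned to GRCm38 with HISAT2 2.1.0, and per the file headers the deposited counts are read pairs per gene symbol from featureCounts 1.6.3 with strand setting 2. The annotation release used for counting is not stated in these sources, and a second table, of counts scaled by the authors, was not used. Library totals ran from 24447435 to 29698009 counts in the urethra and from 18577097 to 22293812 in the bladder, so depth and tissue went together.

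Counts were fitted in 1 model of 4 groups with edgeR 4.0.16 in R 4.3.3 (TMM scaling, filterByExpr, robust quasi-likelihood test). Log2 CPM used a prior count of 2. The standard error is the log2 difference divided by the square root of the F statistic, an approximation, and intervals use it with 12 degrees of freedom. Alternatives used DESeq2 1.42.0, limma-voom (limma 3.58.1), other scalings and filters, litter blocks and each library left out. The fit was also run on simulated data, with far fewer changed genes than were called between these tissues. The outcome of that run is not given here and adds no support. Figures were drawn with matplotlib 3.10.9 in Python 3.11.15.

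The 7 genes and the lists were chosen with earlier results of these data known. The text names the 7 members, called genes of the mesothelium lists, the 10 genes most like the members (1 of which is not reported here), genes overlapping a member, and the 2 genes of each other list with the largest difference. Nkain4, Alcam, Calb2 and Krt14 were added after their values were seen, to complete a count. Litter numbers pair the libraries, per the labels. Deviations of urethra and bladder of the same litter and sex correlated at 0.09 to 0.41 (7 of 8 pairs over 0.1). Those of males and females of the same litter and tissue correlated at −0.05 to 0.27 (4 of 8 pairs over 0.1). Libraries of a group were not copies of each other, with a chi-squared per degree of freedom of 4.60 to 36.2 over 24 pairs.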

Additional observations from a re-analysis of the deposited data

Results flagged for a closer look

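Lrrn4 had 113 CPM in female bladder replicate 2, far from the other 3 libraries of that group, which lay between 93.8 and 95.3 CPM. It was 1 of 28 combinations of gene and group examined, and chance marks about 1 in 20. The same library was the highest of its group for 6 of the 7 genes.

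The tissue difference of Aldh1a1, from the list of other mesothelium genes, had opposite signs in the sexes, 1.76 ± 0.16 in males and −0.47 ± 0.16 in females. The male minus female difference of these was 2.23 ± 0.23 on the log2 scale (interaction, edgeR adjusted p = 9.60e-05). It averaged 74.6 ± 9.75 CPM in male urethra, 13.3 ± 3.52 CPM in female urethra, 22.1 ± 2.90 CPM in male bladder and 18.5 ± 2.07 CPM in female bladder (SD, n = 4 each). The same term was 0.80 ± 0.17 for Efemp1 (edgeR adjusted p = 0.0389), which averaged 143 ± 6.08 CPM in male urethra, 67.2 ± 6.22 CPM in female urethra, 40.8 ± 6.23 CPM in male bladder and 33.5 ± 6.47 CPM in female bladder. None of the 7 members had such a call.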

How the results depend on the processing

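The 6 calls of members between the tissues, over both sexes and within each, were kept in all 26 alternatives (468 of 468 values with the same sign and call), with the litter as a replicate block too, which gave 6, 6 and 6 members called and changed no call of a member. Counts of members called without each library in turn were 6 to 6 over both sexes, 6 to 6 in females and 6 to 7 in males. Library totals alone raised the median of all genes by 0.14 and the share of higher calls from 48.7% to 60.8%, while Cldn15 stood at −3.88 and Msln at −1.83. Other mesothelium genes called numbered 11 to 15 (main 12). The count of members called between the sexes in the urethra was 1 and became 0 without a filter, without female urethra replicates 3 and 4, with the urothelium score as covariate, and in 2 of the 16 fits without 1 library (0 to 1); the cause was not tested.

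Signs turned in 45 values, none of them called in either fit. For Wt1 between the tissues these were 0.048 (both sexes) and 0.12 (females) with library totals, and in females 0.0046 with DESeq2 size factors, 0.0043 with DESeq2 and 0.065 without a filter. For male minus female in the bladder, Lrrn4 stood at −0.0021, −0.0018, −0.071 and −0.023 with DESeq2 size factors, DESeq2, limma-voom and the litter block, and Bnc1 at −0.085 and −0.013 with the last 2. With the urothelium covariate, bladder values were −0.012 for Cldn15, −0.17 for Msln, −0.30 for Upk3b, −0.32 for Lrrn4 and −0.29 for Bnc1, and Lrrn4 in the urethra was at −0.25. Without female urethra replicates 3 and 4, male minus female in the urethra was −0.042 for Muc16, −0.28 for Lrrn4 and −0.040 for Bnc1, and the interaction −0.12 for Upk3b, −0.29 for Lrrn4 and −0.086 for Bnc1. With single libraries left out, ranges that cross 0 were, for Wt1 between tissues, −0.15 to 0.00041 (both sexes), −0.064 to 0.046 (females), −0.30 to 0.014 (males) and −0.30 to 0.027 (interaction). They were −0.18 to 0.36 and −0.17 to 0.38 for Lrrn4 (interaction, and sex in the urethra), and, for sex in the bladder, −0.18 to 0.18 for Lrrn4, −0.18 to 0.25 for Bnc1, −0.16 to 0.32 for Cldn15 and −0.44 to 0.012 for Muc16. Counts of 20 to 41 per urethra library limit the precision of Cldn15.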
